A study of Homo sapiens with 42 samples.

Results

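The response of K562 cells to 18 h of imatinib was compared between nuclear RNA and mRNA, and the genes whose change in one fraction differed from their change in the other were described. The comparison used 12 of the 42 libraries of the series, 3 biological replicates in each of 4 groups, and joined the mRNA and the nuclear count tables by gene identifier. For every gene, the log2 change from CTRL to IM 18h in mRNA was subtracted from the log2 change in nuclear RNA, so a positive log2 difference means that the nuclear value moved upwards relative to the mRNA value. K562 cells are an established human line that originates from chronic myeloid leukaemia in blast crisis and carries the BCR-ABL1 fusion kinase, which imatinib inhibits. CTRL cells were untreated and IM 18h cells were grown with 1 μM imatinib for 18 h. All values come from this single cell line. mRNA libraries were made from whole cells by oligo-dT capture, and nuclear libraries from isolated nuclei after depletion of ribosomal RNA (rRNA), so the fractions differ in how RNA was selected as well as in compartment. They are not a nucleus and a cytoplasm.

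Most messenger RNAs are spliced, cleaved and given a poly(A) tail in the nucleus before export, and steady-state mRNA mostly reports mature cytoplasmic molecules, whereas nuclear RNA also holds unfinished, retained and untailed transcripts. Replication-dependent histone messages are the exception among coding transcripts, because they end in a conserved stem-loop instead of a poly(A) tail and are therefore captured poorly by oligo-dT unless they carry a tail. Mitochondrial rRNAs are made outside the nucleus, carry short A tails and are among the targets of rRNA depletion reagents. In bulk samples of this kind, a lower level can come from fewer cells with a transcript or from less of it per cell, and these cannot be told apart.

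The histone stem-loop is shown first because histones were the gene list with the most called members. In the 150 bases after the stop codon, read on the gene's own strand only, a stem of 6 bases beginning with GG, a loop of 4 bases and the reverse complement of the stem were found in 48 of 49 tested histone genes of a fixed list (98%) and in 63 of 12646 other protein-coding genes (0.498%). Over all 12695 protein-coding genes with such a window the share was 0.874%. A match is a description of the letters and not a measured 3′ end. The 16 bases of the stem-loop are in capitals, flanked by 5 bases on either side, taken from the GRCh38 genome sequence. The first 4 genes were called for a difference between fractions, and the last 3 were well represented in mRNA and had log2 differences near 0.
H2AC8 (capitals at chr6:26217417-26217432, plus strand): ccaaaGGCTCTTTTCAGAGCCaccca
H2BC26 (chr1:228458538-228458553, plus strand): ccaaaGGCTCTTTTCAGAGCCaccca
H2BC9 (chr6:26252055-26252070, plus strand): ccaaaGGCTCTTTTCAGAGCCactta
ENSG00000274267 (chr6:26031597-26031612, minus strand): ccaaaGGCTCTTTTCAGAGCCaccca
H1-2 (chr6:26055744-26055759, minus strand): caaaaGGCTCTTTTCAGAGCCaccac
H2BC12 (chr6:27146366-27146381, minus strand): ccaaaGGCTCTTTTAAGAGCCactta
H4C9 (chr6:27139654-27139669, plus strand): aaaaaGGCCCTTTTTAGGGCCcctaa
The 4 called genes and H1-2 had the same 16 bases, a form found in 29 of the 48 list members with a match. H2BC12 had a form shared by 6 members and H4C9 one shared by 4. For ENSG00000274267, which has no stop codon in the annotation used, the window began at the end of its deposited gene model. The remaining list member, H2AC11, had no match in its window.

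Library totals ran from 17661189 to 19031221 counts in the 6 mRNA libraries and from 16175394 to 23580149 counts in the 6 nuclear libraries. Levels are given in CPM, the count of a gene scaled to a common library total after TMM normalisation. Marker sums alone are CPM of the unscaled library total, without TMM factors. The summed level of 6 erythroid markers of K562 cells (GATA1, TAL1, KLF1, HBG1, HBG2 and TFRC) was 3293 to 3925 CPM in mRNA CTRL and 7363 to 9825 CPM in mRNA IM 18h, and 3771 to 4662 CPM in nuclear CTRL and 7809 to 9040 CPM in nuclear IM 18h. The summed markers of T cells, B cells, granulocytes and monocytes, and megakaryocytes stayed at or below 13.5 CPM in all 12 libraries, with ELANE, PF4 and PPBP at 0. The nuclear transcripts MALAT1, NEAT1 and KCNQ1OT1 together reached 12530 to 18849 CPM in nuclear libraries and 2335 to 3740 CPM in mRNA libraries.

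Of 19967 genes tested, 18 had a response that differed between the fractions, which is 0.0901% of those tested (edgeR's quasi-likelihood test with a log2 difference beyond 0.6 and an adjusted p, by the Benjamini-Hochberg procedure, under 0.05). In 11 of them (0.0551% of genes tested) the nuclear response was the higher one, and in 7 (0.0351%) it was the lower one. Without adjustment, 974 genes (4.88%) had p under 0.05, 369 (1.85%) with a higher and 605 (3.03%) with a lower nuclear response. Genes that were not called were not shown to respond equally in the fractions. The responses themselves were much more frequent. Nuclear RNA changed for 6695 genes (33.5%), and mRNA changed for 6184 genes (31.0%), in the same fit. Both responses were called in the same direction for 4798 genes (24.0%) and in opposite directions for 19 genes (0.0952%). A further 1878 genes (9.41%) were called in nuclear RNA only and 1367 (6.85%) in mRNA only, and the difference itself was called for 5 and 7 of these.

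The 18 genes comprised 9 protein-coding genes, 4 processed pseudogenes, 3 genes of the mitochondrial genome, 1 long non-coding RNA (lncRNA) and ENSG00000274267, a histone locus. Their number depended on single libraries. It was 9 without mRNA IM 18h replicate 2, 9 without nuclear CTRL replicate 2, 10 without nuclear CTRL replicate 3, 11 without mRNA CTRL replicate 3 and 11 without mRNA IM 18h replicate 1. The remaining omissions gave 12 to 19. With the replicate number as a block within each fraction 30 genes were called, 12 higher and 18 lower, of which 16 were among the 18. With the block in nuclear RNA only, where same-numbered libraries correlated, 18 genes were called, 9 in each direction, of which 15 were among the 18. PRNCR1, TUBA1A, HSPA8P1, CLEC2D and H2AC8 were called in every alternative fit that tested them and without any single library.

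**Figure D1:**
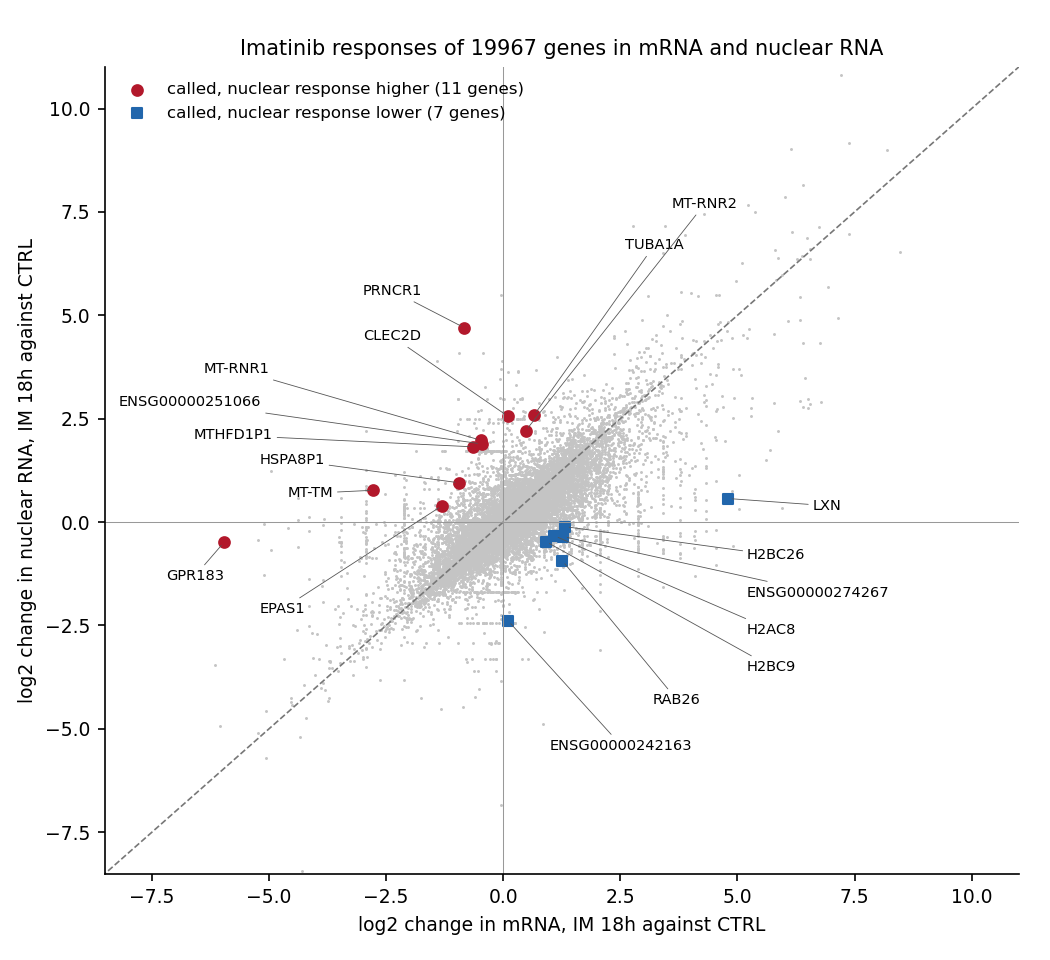
Each point is 1 of 19967 genes, with its log2 change from CTRL to IM 18h in mRNA on the horizontal axis and in nuclear RNA on the vertical axis, and the dashed line marks equal responses. Red circles (11 genes, nuclear response higher) lie above the line and blue squares (7 genes, nuclear response lower) below it, the farthest being PRNCR1 and GPR183 above and LXN below.

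Among protein-coding genes other than histones, TUBA1A, CLEC2D, EPAS1 and GPR183 had the higher nuclear response and LXN and RAB26 the lower one. TUBA1A (ENSG00000167552, chromosome 12, 49184796 to 49189324, minus strand) encodes an α-tubulin, a subunit of microtubules. In mRNA, TUBA1A was at 26.8, 27.1 and 27.0 CPM in CTRL and at 49.2, 37.1 and 41.9 CPM in IM 18h. In nuclear RNA it was at 3.61, 4.29 and 3.26 CPM in CTRL and at 24.9, 20.1 and 22.1 CPM in IM 18h. The groups did not overlap in either fraction, and the gap between CTRL and IM 18h was wider in nuclear RNA. TUBA1A rose 6.01-fold in nuclear RNA and 1.58-fold in mRNA, a log2 difference of 1.92 (SE 0.20, edgeR adjusted p 1.3e-04). Its close relative TUBA1B had log2 changes of -0.41 in nuclear RNA and -0.40 in mRNA. TUBA1C, which overlaps TUBA1A on the other strand only from 49188736 to 49189324, had -0.28 and -0.21. Read pairs that fit several of these tubulin genes equally well were not counted, so the level of TUBA1A is uncertain. In a fit of all 42 libraries, the nuclear log2 change of TUBA1A was 0.21 at 1 h against 2.57 at 18 h, and its mRNA log2 change was -0.05 at 1 h, 0.12 at 6 h and 0.66 at 18 h.

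CLEC2D (ENSG00000069493, chromosome 12, 9664969 to 9699555, plus strand) encodes a C-type lectin-like surface protein that natural killer cells recognise. Its mRNA stood at 29.2, 23.8 and 21.3 CPM in CTRL and at 28.2, 29.1 and 22.4 CPM in IM 18h, and these groups overlapped. Nuclear CLEC2D RNA was at 3.24, 2.00 and 3.03 CPM in CTRL and at 23.1, 13.2 and 12.5 CPM in IM 18h. All nuclear IM 18h libraries lay far above all nuclear CTRL libraries, with replicate 1 the highest. CLEC2D rose 5.92-fold in nuclear RNA, while its mRNA log2 change was 0.10, giving a log2 difference of 2.46 (SE 0.33, edgeR adjusted p 0.0049). In the 20000 bases upstream, 3 same-strand genes end 2884, 6557 and 6577 bases before CLEC2D. The nearest, ENSG00000257027, had a log2 change of 2.10 in nuclear RNA and 1.51 in mRNA. ENSG00000256594 had 1.70 in nuclear RNA and the larger change, 2.11, in mRNA, and ENSG00000284634 had 1.55 and 1.25. The part of these neighbours in the CLEC2D values was not tested. The nuclear CLEC2D value at 1 h was 0.28, against 2.55 at 18 h, in the fit of all 42 libraries.

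EPAS1 (ENSG00000116016, chromosome 2, 46293667 to 46386703, plus strand) encodes HIF-2α, a transcription factor of the hypoxia response. EPAS1 mRNA was at 12.7, 9.47 and 19.2 CPM in CTRL and at 6.85, 4.98 and 4.98 CPM in IM 18h. Nuclear EPAS1 RNA was at 16.8, 15 and 13.8 CPM in CTRL and at 21.3, 19.2 and 19.5 CPM in IM 18h. Neither fraction had overlapping groups, and the order of CTRL and IM 18h was opposite in them. The mRNA fell 2.46-fold, the nuclear log2 change of 0.40 was not called (edgeR adjusted p 0.1), and the log2 difference was 1.69 (SE 0.29, edgeR adjusted p 0.028). The EPAS1 call was lost in 6 of the 12 fits that left out 1 library, namely those without mRNA IM 18h replicate 2 or 3, nuclear CTRL replicate 2 or 3, or nuclear IM 18h replicate 1 or 2, and its log2 difference lay between 1.42 and 1.92 over all settings. Its edgeR adjusted p was 0.054 with the replicate block in nuclear RNA, 0.079 among genes with a mean of 10 CPM or more and 0.56 with all 42 libraries in the fit, so the call was lost there too. In the fit of all 42 libraries the mRNA log2 change was -1.28 at 6 h and -1.30 at 18 h.

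RAB26 (ENSG00000167964, chromosome 16, 2140803 to 2154165, plus strand) encodes a small GTPase of vesicle traffic. It moved the other way. RAB26 mRNA was at 1.27, 1.10 and 0.904 CPM in CTRL and at 2.39, 2.87 and 2.62 CPM in IM 18h, while nuclear RAB26 RNA was at 9.79, 10.2 and 16.1 CPM in CTRL and at 4.13, 7.11 and 7.80 CPM in IM 18h. The groups were apart in both fractions, with mRNA higher and nuclear RNA lower after imatinib. RAB26 rose 2.40-fold in mRNA and fell 1.91-fold in nuclear RNA, a log2 difference of -2.19 (SE 0.40, edgeR adjusted p 0.044). The RAB26 call was kept without nuclear CTRL replicate 1 or nuclear IM 18h replicate 1 or 3 and was lost in the other 9 of 12 fits that left out 1 library. It was also lost among genes with a mean of 10 CPM or more (edgeR adjusted p 0.16), with limma voom (adjusted p 0.12) and with IM 1h in place of CTRL (edgeR adjusted p 0.15). As with EPAS1, the mRNA log2 change of RAB26 was 1.25 at both 6 h and 18 h.

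LXN and GPR183 changed in mRNA from or to almost no counts, while their nuclear levels moved little. LXN (ENSG00000079257, chromosome 3, 158645822 to 158672693, minus strand) encodes latexin, an inhibitor of carboxypeptidases. In mRNA it had 2, 0 and 1 counts in CTRL and 36, 26 and 33 counts in IM 18h, or 0.127, 0 and 0.0645 CPM against 2.20, 1.52 and 2.06 CPM. In nuclear RNA, LXN was at 1.27, 1.92 and 2.05 CPM in CTRL and at 3.38, 2.05 and 2.32 CPM in IM 18h. The mRNA groups were far apart, and the nuclear groups met at 2.05 CPM. Pooled over replicates, LXN mRNA was 32.2 times as abundant in IM 18h as in CTRL, with a 95% counting interval of 10.7 to 159. The log2 difference between fractions was -4.22 (SE 0.67, edgeR adjusted p 0.014). The LXN call was lost without mRNA CTRL replicate 3 and with IM 1h in place of CTRL. LXN lies across GFM1, which is on the other strand and had log2 changes of -0.93 in nuclear RNA and -0.89 in mRNA.

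GPR183 (ENSG00000169508, chromosome 13, 99294530 to 99307405, minus strand) encodes a receptor for oxysterols that guides immune cells. In mRNA it had 23, 20 and 35 counts in CTRL and 0, 0 and 1 in IM 18h, or 1.46, 1.22 and 2.26 CPM against 0, 0 and 0.0623 CPM. In nuclear RNA, GPR183 was at 3.44, 1.80 and 1.78 CPM in CTRL and at 1.88, 1.79 and 1.32 CPM in IM 18h. The nuclear groups overlapped, whereas mRNA was nearly absent from all IM 18h libraries. GPR183 mRNA was 76.7 times as abundant in CTRL as in IM 18h, with a 95% counting interval of 13.4 to 3069. The log2 difference of 5.47 (SE 0.87, edgeR adjusted p 0.014) depends on the small count that the fit adds, because the IM 18h mRNA libraries held 1 count in all. The call was lost without mRNA IM 18h replicate 1 or 2. The gene lies inside UBAC2 on the other strand, whose nuclear RNA was at 53.1 CPM in CTRL and 44.2 CPM in IM 18h. The methods name no strand setting for the counting, so nuclear pairs from an unspliced UBAC2 transcript and from GPR183 cannot be told apart, and the same holds for GFM1 and LXN. The mRNA log2 change of GPR183 was -0.44 at 1 h, -3.60 at 6 h and -5.98 at 18 h, and that of LXN was 1.33, 2.75 and 4.79 at these times.

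**Figure D2:**
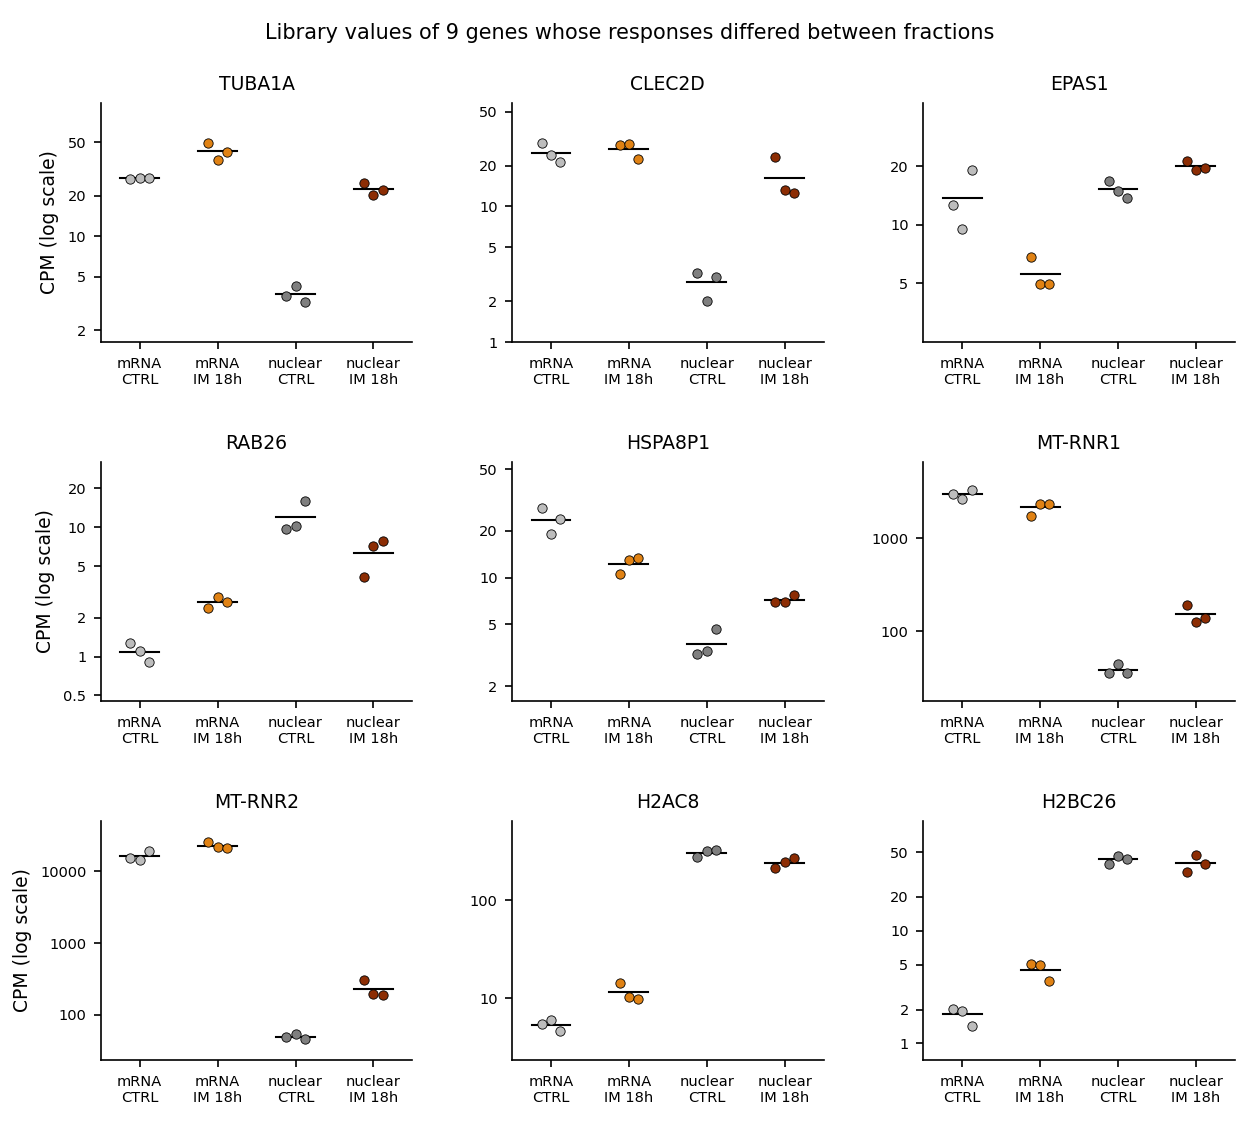
Each panel shows 1 gene, with CPM on a logarithmic axis, a point for each of 12 libraries and a bar at the mean of each group of 3. TUBA1A and CLEC2D rise in nuclear RNA from a level far below mRNA, whereas H2AC8 and H2BC26 rise in mRNA from a level far below nuclear RNA, and in EPAS1, RAB26, HSPA8P1 and MT-RNR1 the group means move in opposite directions in the fractions.

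PRNCR1 (ENSG00000282961, an lncRNA with a single exon of 12727 bases on the plus strand of chromosome 8) changed in opposite directions in the fractions. In mRNA, PRNCR1 was at 2.04, 1.89 and 1.81 CPM in CTRL and at 1.04, 1.11 and 1.06 CPM in IM 18h. Nuclear libraries held 1, 1 and 3 counts in CTRL (0.0410, 0.0409 and 0.134 CPM) and 69, 34 and 35 counts in IM 18h (2.59, 1.48 and 1.84 CPM). The mRNA level was lower in all IM 18h libraries than in all CTRL libraries, and the nuclear level was higher in all of them. PRNCR1 fell 1.78-fold in mRNA, and its pooled nuclear level was 29.8 times the CTRL level with a 95% counting interval of 12.5 to 93.3. Its log2 difference was 5.53 (SE 0.53, edgeR adjusted p 9.7e-05). CASC19, an lncRNA that lies across PRNCR1 on the other strand, went from 0.141 to 2.43 CPM in nuclear RNA and from 0.0419 to 0.245 CPM in mRNA. Without strand, nuclear pairs of PRNCR1 and CASC19 outside their shared exons cannot be told apart. Nuclear PRNCR1 had a log2 change of 0.85 at 1 h and 4.69 at 18 h in the fit of all 42 libraries.

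The called genes included 4 processed pseudogenes, which are intronless copies of messenger RNAs, 3 with the higher and 1 with the lower nuclear response. HSPA8P1 (ENSG00000234176, chromosome X, 121203182 to 121205014, minus strand) is a copy of HSPA8, the constitutive heat shock cognate chaperone. HSPA8P1 was at 27.9, 19.2 and 23.8 CPM in mRNA CTRL and at 10.5, 13 and 13.3 CPM in mRNA IM 18h, and at 3.20, 3.35 and 4.64 CPM in nuclear CTRL and 6.94, 6.93 and 7.69 CPM in nuclear IM 18h. No groups overlapped. It fell 1.92-fold in mRNA and rose 1.93-fold in nuclear RNA, a log2 difference of 1.89 (SE 0.25, edgeR adjusted p 0.0031). The parent gene HSPA8 fell by 0.91 on the log2 scale in both fractions, close to the mRNA log2 change of the copy, -0.94. A copy can collect pairs of its parent wherever the alignment places them uniquely, so the level of HSPA8P1 is uncertain.

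MTHFD1P1 (ENSG00000231831, chromosome X, 57392646 to 57395409, minus strand), a copy of the folate enzyme gene MTHFD1, was at 3.94, 5.38 and 5.03 CPM in mRNA CTRL and at 2.69, 3.40 and 3.12 CPM in mRNA IM 18h. In nuclear RNA it was at 0.287, 0.204 and 0.268 CPM in CTRL and at 1.31, 0.567 and 0.790 CPM in IM 18h. The groups were apart in both fractions, in opposite order. The log2 difference was 2.46 (SE 0.46, edgeR adjusted p 0.046), and of the 12 fits that left out 1 library the call was kept only without nuclear IM 18h replicate 2. It was also lost with a replicate block shared by the fractions (edgeR adjusted p 0.077), with limma voom (adjusted p 0.055) and with IM 1h in place of CTRL (edgeR adjusted p 0.067). MTHFD1 itself had log2 changes of -0.83 in nuclear RNA and -0.70 in mRNA. FAAH2, a fatty acid amide hydrolase gene that lies across the copy on the other strand, had 2.02 and 1.48.

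ENSG00000251066 (chromosome 5, 85549409 to 85549952, plus strand) was at 1.84, 2.44 and 1.61 CPM in mRNA CTRL and at 1.41, 1.58 and 1.31 CPM in mRNA IM 18h. Its nuclear level was 0.901, 0.776 and 0.669 CPM in CTRL and 3.53, 2.88 and 2.32 CPM in IM 18h. The nuclear groups were far apart and the mRNA groups were close to each other. The log2 difference was 2.35 (SE 0.37, edgeR adjusted p 0.014), and the call was lost without mRNA IM 18h replicate 3, nuclear CTRL replicate 2 or 3, or with IM 1h in place of CTRL. ENSG00000242163 (chromosome 14, 81332961 to 81333361, minus strand) lies inside STON2, a gene of endocytosis, on the same strand. In mRNA, ENSG00000242163 was at 2.16, 2.02 and 2.52 CPM in CTRL and at 1.41, 2.87 and 2.87 CPM in IM 18h. In nuclear RNA it was at 1.43, 1.23 and 1.52 CPM in CTRL and at 0.225, 0.305 and 0.263 CPM in IM 18h. Only the nuclear groups were apart. ENSG00000242163 fell 5.19-fold in nuclear RNA beside STON2, whose log2 changes were -1.88 in nuclear RNA and -1.93 in mRNA, and its log2 difference was -2.47 (SE 0.45, edgeR adjusted p 0.045). That call was kept in only 1 of 12 fits that left out 1 library, the one without mRNA IM 18h replicate 1, and the edgeR adjusted p was 0.078 with the replicate block in nuclear RNA, 0.055 with it in both fractions and 0.56 with IM 1h in place of CTRL.

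The RNAs of the mitochondrial ribosome rose in nuclear libraries, and their mRNA responses were not called. MT-RNR1, the RNA of the small subunit, was at 3011, 2635 and 3330 CPM in mRNA CTRL and at 1718, 2367 and 2358 CPM in mRNA IM 18h. In nuclear libraries it was at 35.6, 44.3 and 36.1 CPM in CTRL and at 192, 126 and 138 CPM in IM 18h. No groups overlapped, and the order was opposite in the fractions. MT-RNR1 rose 3.94-fold in nuclear libraries, with a log2 difference of 2.46 (SE 0.23, edgeR adjusted p 1.3e-04). MT-RNR2, the RNA of the large subunit, was at 15347, 14365 and 19353 CPM in mRNA CTRL and at 25233, 21676 and 21433 CPM in mRNA IM 18h. In nuclear libraries MT-RNR2 was at 48.7, 54.0 and 46.9 CPM in CTRL and at 304, 197 and 192 CPM in IM 18h. It was higher after imatinib in both fractions, with the wider gap in nuclear libraries. MT-RNR2 rose 4.64-fold there, its mRNA log2 change of 0.48 was not called, and the log2 difference was 1.74 (SE 0.22, edgeR adjusted p 0.0072).

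Both mitochondrial rRNAs are targets of the rRNA depletion that only the nuclear libraries underwent. They took 0.00911%, 0.0108% and 0.00940% of all counts in nuclear CTRL and 0.0561%, 0.0370% and 0.0388% in nuclear IM 18h, against 1.46% to 2.42% in the mRNA libraries. In the 3 nuclear libraries of cells given imatinib for 1 h the share was 0.0479%, 0.0112% and 0.00459%, so replicates of that group spanned the levels of both CTRL and IM 18h. With these IM 1h libraries in place of CTRL, or with all 42 libraries in the fit, neither MT-RNR1 nor MT-RNR2 was called, and over all settings their log2 differences reached down to 1.36 and 0.63. The part of the depletion step in these values was not tested.

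The 13 mitochondrial messages did not share this size of difference. Of the 15 mitochondrial genes of the list, the rRNAs alone were called. At unadjusted p under 0.05, 5 of the 15 had a higher nuclear response (33.3% against 1.85% of all genes). These were both rRNAs and the messages MT-ND2, MT-ND4 and MT-ATP8. Of the 15 genes, 14 were above 0, with a median log2 difference of 0.22 against -0.02 over all genes. MT-ND2, a subunit of respiratory complex I, had log2 changes of 0.01 in nuclear RNA and -0.35 in mRNA. MT-ND4, another subunit of that complex, had 0.53 and 0.27. Mitochondrial messages together took 4.90%, 6.17% and 5.53% of counts in nuclear CTRL and 6.37%, 6.99% and 7.76% in nuclear IM 18h, and 9.27%, 8.56% and 8.87% in mRNA CTRL and 10.2%, 10.4% and 10.3% in mRNA IM 18h. The share was higher after imatinib in every library of both fractions. Among 21 mitochondrial transfer RNA genes tested, only MT-TM, the transfer RNA for methionine, was called. MT-TM had 7, 7 and 14 counts in mRNA CTRL and 1, 1 and 2 in mRNA IM 18h, and its nuclear level was 1.60, 2.08 and 1.52 CPM in CTRL and 3.56, 2.88 and 2.42 CPM in IM 18h. The groups were apart in opposite order. The pooled mRNA level of MT-TM was 6.89 times as high in CTRL as in IM 18h (95% counting interval 2.41 to 27.0), and the log2 difference of 3.55 (SE 0.64, edgeR adjusted p 0.044) was lost in 10 of 12 fits that left out 1 library, all but those without mRNA CTRL replicate 2 or nuclear IM 18h replicate 3. With the replicate block in nuclear RNA its edgeR adjusted p was 0.054, with a block shared by the fractions 0.069, and with all 42 libraries or with IM 1h in place of CTRL 0.13.

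Most replication-dependent histones had a lower nuclear than mRNA response. Of 67 listed genes, 49 were tested. Of these, 3 were called (H2AC8, H2BC26 and H2BC9), all lower, 22 (44.9%) were lower at unadjusted p under 0.05 against 3.03% of all genes, and none was higher at that level. The median log2 difference was -0.89 against -0.02 over all genes, and 47 of 49 members were below 0 (95.9%, against 52.9% of all genes). In mRNA, 18 members rose (36.7%, against 17.3% of all genes) and none fell, with a median log2 change of 0.53. In nuclear RNA 1 rose and 11 fell (22.4%, against 15.4% of all genes), with a median of -0.30. These lists were drawn up when earlier results for these samples were known, so the counts are a description. All genes are a broad comparison, because most listed histones had a high nuclear to mRNA ratio in cells given imatinib for 1 h. Among the 1997 tested genes with the highest ratio, 218 had a lower and 33 a higher nuclear response at unadjusted p under 0.05. Over all 19967 genes these were 605 (3.03%) and 369 (1.85%). The median log2 difference of the 1997 genes was -0.36. This group reaches from a log2 ratio of 0.95 to 10.44 and holds most of the listed histones themselves. Genes matched to the histones in ratio were not compared, so how far the histone direction goes with the ratio was not tested.

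H2AC8 (ENSG00000277075, chromosome 6, 26216975 to 26217483, plus strand), a gene of core histone H2A, was at 5.47, 6.05 and 4.71 CPM in mRNA CTRL and at 14.5, 10.4 and 9.78 CPM in mRNA IM 18h. In nuclear RNA it was at 273, 318 and 321 CPM in CTRL and at 213, 242 and 270 CPM in IM 18h. The groups were apart in both fractions, in opposite order, although nuclear replicate 3 of IM 18h came close to CTRL. H2AC8 rose 2.13-fold in mRNA, had a nuclear log2 change of -0.33 that was not called, and had a log2 difference of -1.42 (SE 0.21, edgeR adjusted p 0.0077). H2BC26 (ENSG00000196890, chromosome 1, 228458107 to 228460470, plus strand), a gene of core histone H2B, was at 2.04, 1.96 and 1.42 CPM in mRNA CTRL and at 5.08, 4.92 and 3.55 CPM in mRNA IM 18h. Nuclear H2BC26 RNA was at 39.5, 46.5 and 43.4 CPM in CTRL and at 33.4, 47.3 and 39.2 CPM in IM 18h, where the groups overlapped. It rose 2.50-fold in mRNA and had a log2 difference of -1.43 (SE 0.26, edgeR adjusted p 0.044).

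H2BC9 (ENSG00000275713, chromosome 6, 26251651 to 26253710, plus strand), another H2B gene, was at 4.07, 5.50 and 3.16 CPM in mRNA CTRL and at 7.46, 6.92 and 9.66 CPM in mRNA IM 18h. Its nuclear level was 53.6, 50.0 and 54.0 CPM in CTRL and 33.2, 35.6 and 45.3 CPM in IM 18h. The groups were apart in both fractions. H2BC9 rose 1.88-fold in mRNA, its nuclear log2 change was -0.47, and its log2 difference was -1.38 (SE 0.25, edgeR adjusted p 0.044, and 0.054 with the replicate block in both fractions). ENSG00000274267 (chromosome 6, 26031650 to 26032060, minus strand) lies within the RefSeq gene H3C2, at 26031589 to 26032099, which encodes core histone H3. In mRNA, ENSG00000274267 was at 1.84, 2.99 and 1.55 CPM in CTRL and at 5.50, 5.92 and 4.17 CPM in IM 18h. In nuclear RNA it was at 363, 421 and 436 CPM in CTRL and at 261, 316 and 380 CPM in IM 18h. Only the mRNA groups were apart. It rose 2.43-fold in mRNA and had a log2 difference of -1.63 (SE 0.28, edgeR adjusted p 0.033). Of the 12 fits that left out 1 library, the call of H2BC26 was kept without mRNA IM 18h replicate 3 or nuclear IM 18h replicate 2, and that of H2BC9 without mRNA CTRL replicate 2 or nuclear IM 18h replicate 3. The call of ENSG00000274267 was lost in 7 of 12, those without mRNA CTRL replicate 1 or 3, mRNA IM 18h replicate 1 or 2, nuclear CTRL replicate 2 or 3, or nuclear IM 18h replicate 2. The calls of H2BC26, H2BC9 and ENSG00000274267 were also lost among genes with a mean of 10 CPM or more and with IM 1h in place of CTRL, at edgeR adjusted p values from 0.13 to 0.25. With all 42 libraries in the fit, H2BC26 (edgeR adjusted p 0.078) and ENSG00000274267 (0.13) were not called. The H2BC26 call was further lost with RLE factors (edgeR adjusted p 0.051), without genes over 1% of counts (0.054) and with limma voom (0.17). Histone genes of a family share much of their coding sequence, so their separate levels are uncertain.

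**Figure D3:**
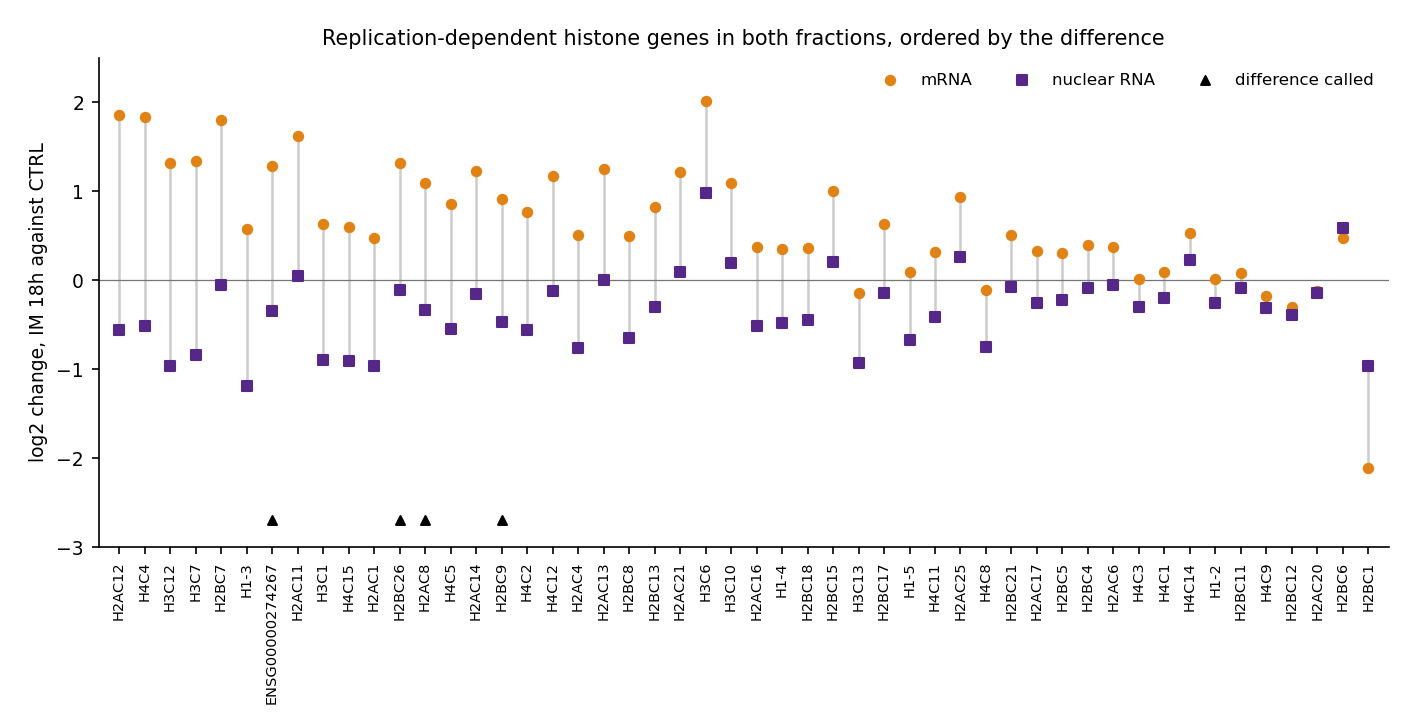
The 49 tested genes of the histone list and ENSG00000274267 are ordered from the lowest to the highest log2 difference, with the log2 change from CTRL to IM 18h in mRNA (circles) and nuclear RNA (squares), and triangles mark the 4 called genes. For nearly all genes the mRNA value lies above the nuclear value, from H2AC12 at a difference of -2.41 to H2AC20 at -0.01, and the order is turned in H2BC6 and H2BC1.

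The direction was shared by the histone families. The median log2 difference was -1.25 over 13 H2A genes, -0.78 over 15 H2B genes, -1.28 over 6 H3 genes, -0.73 over 11 H4 genes and -0.79 over 4 genes of linker histone H1. Another 4 histone genes, with edgeR adjusted p values from 0.051 to 0.087, lay just outside the threshold. H2AC12 had a log2 difference of -2.41 and H4C4 of -2.34, both with 1.36 CPM or less as the mean of either mRNA group. H4C5, at -1.40, and H2AC11, at -1.58, were better represented, and H2AC11 mRNA went from 41.7, 51.5 and 23.1 CPM in CTRL to 132, 118 and 109 CPM in IM 18h. Nuclear H2AC11 was at 446, 502 and 530 CPM in CTRL and 455, 489 and 583 CPM in IM 18h, and these groups overlapped.

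The size of the difference varied with the balance of a gene between the fractions. The nuclear to mRNA ratio of each gene was taken from the IM 1h libraries, which enter neither response. The 24 histone genes with a ratio above the list median had a median log2 difference of -1.19, and the other 25 had -0.68. Over the 49 genes and ENSG00000274267, Spearman's ρ between ratio and difference was -0.359, across genes of the same libraries, which are not independent. The 30 histone genes with a mean of 1 CPM or more in mRNA CTRL had a median of -0.81, and among the better represented ones the values ranged from that of H2AC11 to values near 0. The mRNA CTRL level is part of the difference itself. Genes picked by that level, here and below, are therefore a description and no independent support. H1-2, per kilobase of exon the most abundant histone message in mRNA CTRL at 952 CPM per kilobase, was at 611 CPM in mRNA CTRL and 615 CPM in mRNA IM 18h and at 1964 and 1642 CPM in nuclear RNA, with a log2 difference of -0.27 (SE 0.24). H2BC12 had -0.10, H4C9 -0.13 and H2BC11 -0.16. These 4 genes, chosen after their values were seen, carry the stem-loop too. H2BC8, at -1.15, and H3C10, at -0.90, were also well represented in mRNA.

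The gene models were also compared with the stem-loop position. In 20 genes the outer end of the annotated model, with introns included, lies more than 100 bases past the stem-loop. Their median log2 difference was -0.74 with 19 of 20 below 0. In 28 genes whose model ends at or near the stem-loop, the median was -1.11 with 27 of 28 below 0. Both kinds of model had the lower nuclear response. A model that ends before the stem-loop still counts pairs from the coding part of a longer transcript, so this split cannot separate transcript ends. Over time, the median mRNA log2 change of the 49 genes was 0.03 at 1 h, 0.19 at 6 h and 0.52 at 18 h, and the nuclear median was -0.02 at 1 h and -0.31 at 18 h. The histone list took 0.160%, 0.194% and 0.117% of counts in mRNA CTRL, 0.210%, 0.205% and 0.163% in mRNA IM 18h, 1.07%, 1.24% and 1.29% in nuclear CTRL and 0.877%, 1.03% and 1.17% in nuclear IM 18h. These shares overlapped between CTRL and IM 18h in both fractions. Small nuclear RNAs and other untailed RNAs of a further list took 0.00169%, 0.00167% and 0.00123% of counts in mRNA CTRL and 0.00121%, 0.00122% and 0.00107% in mRNA IM 18h. They took 0.493%, 0.556% and 0.524% in nuclear CTRL and 0.578%, 0.642% and 0.553% in nuclear IM 18h. The mRNA shares rest on few counts, only 22 of the 39 listed genes were tested, and their bearing on the histone values was not tested. Whether the histone counts in mRNA came from tailed transcripts was not tested.

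In the other 14 gene lists no member was called for a difference between fractions. Only 0.0901% of all genes tested were called, so lists of this size can lack a call without differing from other genes. All 10 globin genes rose in both fractions, against 18.1% of all genes in nuclear RNA and 17.3% in mRNA, with a median log2 difference of -0.19. Of 29 tested genes of the erythroid membrane, 28 rose in nuclear RNA (against 18.1% of all genes) and 24 in mRNA (against 17.3%), with a median log2 difference of 0.03. The lowest log2 difference of that list was -1.91 (SE 0.95) for ART4 and the highest 0.81 (SE 0.85) for CD44. The band 3 anion exchanger SLC4A1 had log2 changes of 6.87 in nuclear RNA and 6.49 in mRNA. ALAS2, the erythroid enzyme of haem synthesis, had 4.03 and 3.79. Haem and iron genes had a median log2 difference of 0.02 and erythroid regulators of -0.00. Among the regulators, SPI1, a myeloid transcription factor, had the largest value, 1.14 (SE 0.61, edgeR adjusted p 1).

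Most listed target genes of STAT5 and ERK, which act below BCR-ABL1, and most genes of ribosome production fell in both fractions. Of 57 STAT5 and ERK target genes, 36 fell and 8 rose in nuclear RNA, and 39 fell and 6 rose in mRNA, against 15.4% of all genes falling in nuclear RNA and 13.7% in mRNA. Their median log2 difference was 0.17, and 5 had a higher nuclear response at unadjusted p under 0.05 (8.77% against 1.85% of all genes). FOS, an immediate early transcription factor, had the largest difference of the list, 1.65 (SE 1.01, edgeR adjusted p 1). SOCS3, a feedback inhibitor of cytokine signalling, had log2 changes of -4.07 in nuclear RNA and -3.80 in mRNA. Of 84 nucleolar genes of ribosome biogenesis, 81 fell in nuclear RNA (against 15.4% of all genes) and 82 in mRNA (against 13.7%), with a median log2 difference of -0.08. RCL1, a processing factor of ribosomal RNA, had the highest difference of that list at 0.30, and RRP9, a protein of small nucleolar particles, the lowest at -0.49.

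For genes of RNA processing and the cell cycle, median log2 differences were near the -0.02 of all genes. They were 0.08 for SR proteins and their kinases, 0.03 for other splicing factors and helicases, 0.02 for cytosolic ribosomal proteins, -0.02 for DNA replication and -0.02 for mitosis. Among the splicing genes, SCAF8 (0.37, SE 0.14) and RBM39 (0.36, SE 0.15) had the highest or nearly the highest values, and neither was called (edgeR adjusted p 0.89 and 0.94). Nuclear lncRNAs had a median of -0.09, small nucleolar RNA host genes of -0.18, and small nuclear and other abundant non-coding RNAs of 0.24. NEAT1, which scaffolds paraspeckles, was at 240, 245 and 118 CPM in mRNA CTRL and at 258, 471 and 284 CPM in mRNA IM 18h, against 1786, 1778 and 1769 CPM in nuclear CTRL and 1580, 1682 and 1540 CPM in nuclear IM 18h. Its log2 difference of -0.90 (SE 0.38) was not called (edgeR adjusted p 0.96).

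**Figure D4:**
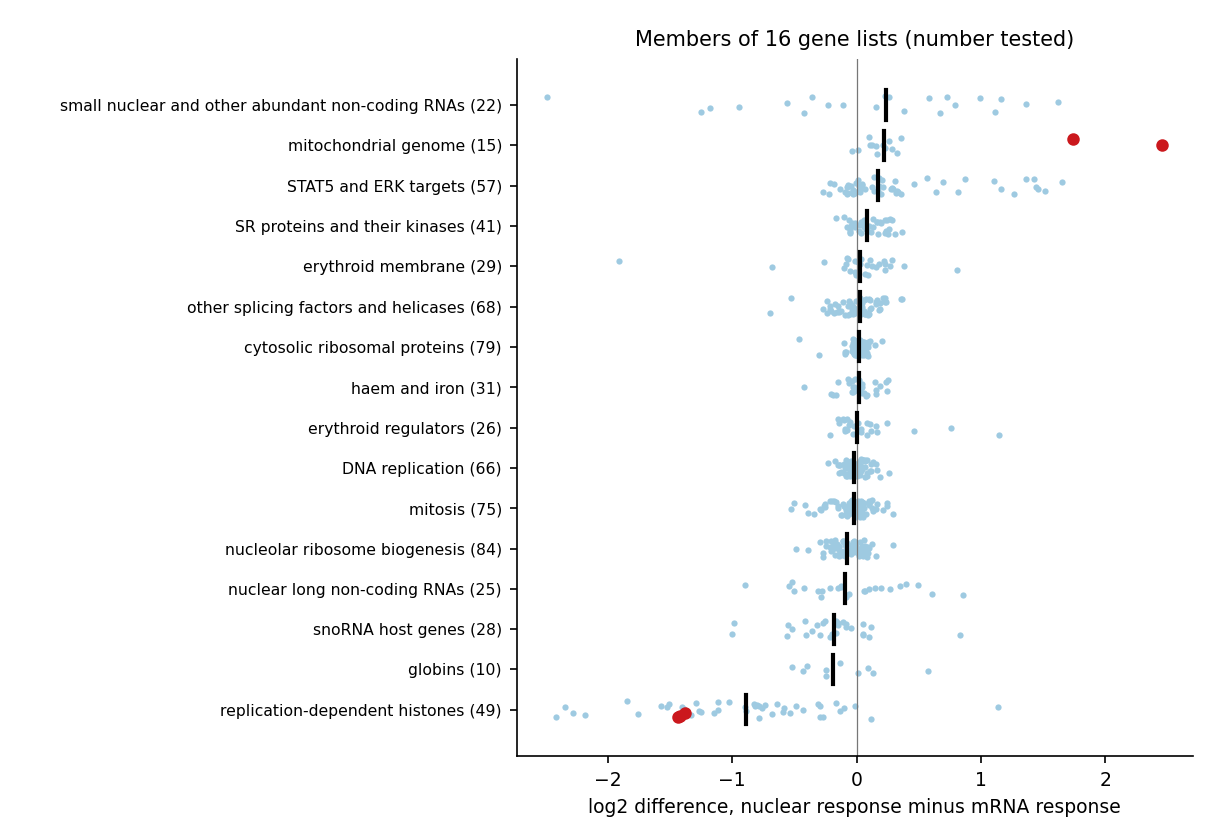
Each point is a tested gene of 1 of 16 lists, with its log2 difference on the horizontal axis, lists on the vertical axis with their number of tested genes, a black bar at each list's median and called genes in red. Medians of 14 lists lie between -0.19 and 0.24 with no called gene, the mitochondrial list has 2 called genes on the right, and the histone list, with its median at -0.89, has 3 on the left.

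Beyond the lists, the difference varied with the class of gene and with its balance between the fractions, and these 2 overlap. The median log2 difference was 0.00 for 12708 protein-coding genes and -0.21 for 3324 lncRNAs. Of the lncRNAs, 231 (6.95%) had a lower and 46 (1.38%) a higher nuclear response at unadjusted p under 0.05, against 3.03% and 1.85% of all genes. The median change of lncRNAs was 0.52 in mRNA and 0.23 in nuclear RNA. For 674 lncRNAs that overlap no other gene the median log2 difference was -0.16, and for 2165 that overlap a gene on the other strand it was -0.22. Of 2158 processed pseudogenes, 117 (5.42%) had a higher and 69 (3.20%) a lower nuclear response at that level, against 1.85% and 3.03% of all genes. Their median log2 difference was 0.03.

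Genes were further ordered by the nuclear to mRNA ratio in the IM 1h libraries and divided into 10 groups of about 1997 genes. The median log2 difference was 0.11 in the group with the lowest ratio, -0.01 in group 5 and -0.36 in the group with the highest ratio. Among protein-coding genes alone it went from 0.09 to -0.35. lncRNAs made up 2.65% of the group with the lowest ratio and 37.3% of that with the highest, so their class and ratio were not separated. The mRNA response carried most of this slope, since its median went from -0.17 in group 1 to 0.36 in group 9 and 0.25 in group 10, while the nuclear median stayed between -0.10 and 0.15. Spearman's ρ between ratio and difference was -0.300 across 19967 genes and -0.306 across 12708 protein-coding genes, which share the same libraries and are not independent replicates. Most listed histones fell in group 10. There, 218 of 1997 genes had a lower and 33 a higher nuclear response at unadjusted p under 0.05, against 3.03% and 1.85% of all genes. The median of the histone list, -0.89, was lower than the -0.36 of that group. The group holds these histones too and spans log2 ratios from 0.95 to 10.44, so it is not a matched comparison.

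**Figure D5:**
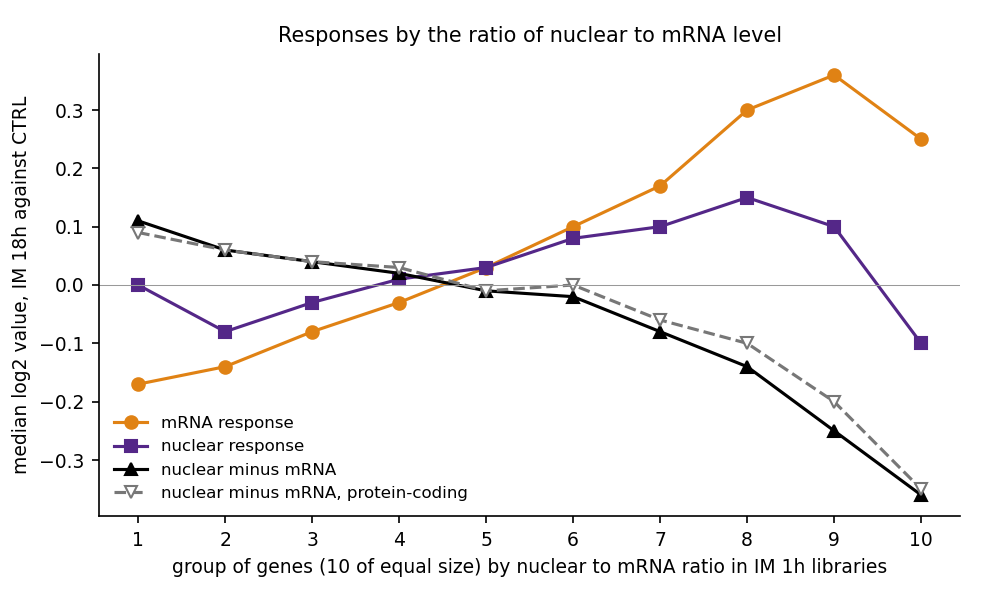
The horizontal axis gives 10 groups of tested genes of equal size, from the lowest to the highest nuclear to mRNA ratio in IM 1h libraries, and the vertical axis gives median log2 values for the mRNA response, the nuclear response and their difference. The difference falls from 0.11 to -0.36, in protein-coding genes from 0.09 to -0.35, and the mRNA response rises from -0.17 to 0.36 in group 9.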

How the data were processed

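Gene counts of 12 libraries were used, 3 in each of 4 groups taken from the sample titles. The authors trimmed and deduplicated the reads (without molecular identifiers), aligned them to the human genome with STAR, keeping pairs with a single location, and deposited raw counts of read pairs over exons per gene made with featureCounts (submitters' processing notes: GRCh38.p14, which is the build of all coordinates here). The annotation release is not given in the sources used here. Of 58243 gene identifiers, 57532 are in GENCODE 44, used for symbols and classes. The labels name RiboErase for rRNA depletion of nuclear RNA and the methods RiboMinus. Pairs over exons of several genes were left out as ambiguous. The libraries are stranded, but no strand setting was stated for counting. Introns were limited in length, which removes pairs that span long ones.

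Counts were fitted with edgeR 4.0.16 in R 4.3.3 (glmQLFit with robust dispersion, glmQLFTest, filterByExpr over the 4 groups, TMM, 1 term per group). The contrast was the nuclear minus the mRNA response. Calls needed a log2 value beyond 0.6 and p under 0.05 after Benjamini-Hochberg adjustment over 19967 genes. Values at other times come from a fit of all 42 libraries and were not tested. Replicates of each group differed by more than sampling noise (chi-square per gene 6.21 to 28.8). Intervals cover counting error only. On simulated counts the script called 64 of 100 genes given a 2-fold difference and 100 of 100 given a 4-fold one. Of 176 calls there, 12 were false. The changed genes were drawn from those with more counts and all genes had the common dispersion, so recovery in the data may be lower. Members and lists were chosen with earlier results of these data known. A marker of the fixed erythroid set is not reported here. Looked up were all called genes, in each list its called members and the 2 highest and 2 lowest, and up to 10 genes called in opposite directions. Only part of the highest and lowest list members is printed in the text, without a fixed rule for which. Genes just outside the threshold, histones near 0, MT-ND2, MT-ND4, MT-ATP8, overlapping and parent genes were chosen after their values were seen. Alternatives were RLE factors, TMM within fractions, library totals, no genes over 1% of counts, other filters, DESeq2 1.42.0, limma 3.58.1 voom, no fold threshold, all 42 libraries, IM 1h in place of CTRL, replicate blocks, and leaving out each library. The block in nuclear RNA only was added after seeing the data. Replicate numbers come from the titles. Deviations of same-numbered CTRL and IM 18h libraries correlated at 0.237 to 0.681 in nuclear RNA, so these libraries may be paired by number. Libraries of different numbers were not compared, so pairing was not shown. In mRNA they correlated at -0.38, -0.333 and 0.113 for numbers 1, 2 and 3, so no pairing was seen with these numbers. The paper lists the totals of mRNA CTRL replicates 1 and 2, here 18333127 and 19031221, in the reverse order. The numbering of these 2 libraries is therefore uncertain, which bears on the blocked mRNA fits and on fits without either of them. Between fractions, same-numbered libraries correlated at 0.152 to 0.385 in IM 18h and at -0.174 to 0.0819 in CTRL.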

Additional observations from a re-analysis of the deposited data

Results flagged for a closer look

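How far the nuclear response differed from that in mRNA was itself tested (edgeR's quasi-likelihood test), and the 18 genes that passed are given here with their log2 differences. The value was 5.53 for PRNCR1, 5.47 for GPR183, 3.55 for MT-TM, 2.46 for MT-RNR1, CLEC2D and MTHFD1P1, 2.35 for ENSG00000251066, 1.92 for TUBA1A, 1.89 for HSPA8P1, 1.74 for MT-RNR2 and 1.69 for EPAS1. In the other direction it was -4.22 for LXN, -2.47 for ENSG00000242163, -2.19 for RAB26, -1.63 for ENSG00000274267, -1.43 for H2BC26, -1.42 for H2AC8 and -1.38 for H2BC9. None of these 18 genes changed sign in any alternative. PRNCR1, TUBA1A, CLEC2D and HSPA8P1 pair a nuclear rise with an mRNA level that rose less, was not called or fell.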

How the results depend on the processing

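Counts of called differences were 18 with library totals, TMM within fractions or no fold threshold, 17 with RLE factors, 16 without genes over 1% of counts and 20 with all 42 libraries. Without a low-count filter 38734 genes were tested and 61 called (32 higher and 29 lower), and among the 10184 with a mean CPM of 10 or more 6 were called (5 and 1). Of the 18, 7 were not tested there, and EPAS1, RAB26, H2BC26, H2BC9 and ENSG00000274267 were tested and not called. That filter left 3290 nuclear and 3213 mRNA responses. DESeq2 called 34 (18 and 16) and limma voom 33 (20 and 13), holding 18 and 15 of the main 18. With IM 1h in place of CTRL 13 were called, 10 higher and 3 lower, including 7 of the 18. Where no construction shows the cause, the cause was not tested. With a replicate block within each fraction, which also pairs mRNA libraries by numbers that showed no pairing, 30 were called (12 higher and 18 lower). With the block shared by fractions or in nuclear RNA only there were 18 (9 and 9). The blocked fits moved no other count by over 1.5 times, giving 6735 to 6751 nuclear and 6152 to 6191 mRNA responses. Leaving out 1 library gave 9 to 19 calls, 7 to 10 higher and 2 to 9 lower, and 5675 to 7077 nuclear and 5352 to 6277 mRNA responses, with fewer samples in each fit. The histone median lay between -1.08 and -0.63 over all alternatives, and the globin, small nuclear RNA and several other list medians crossed 0. Genes with at most 5 counts in a group (PRNCR1, LXN, GPR183 and MT-TM) have the least certain sizes.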

Other observations

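Several genes below the threshold for the difference moved in opposite directions in the fractions and passed the test in each. PA2G4P4, a processed copy of the growth regulator gene PA2G4, was at 26.5, 25.8 and 21.9 CPM in mRNA CTRL and at 11.1, 12 and 13 CPM in mRNA IM 18h, whereas its nuclear level was 0.287, 0.409 and 0.178 CPM in CTRL and 0.60, 0.567 and 0.474 CPM in IM 18h. Its groups were apart in both fractions, and the log2 difference was 1.93 (SE 0.37, edgeR adjusted p 0.051). HSP90B2P, a copy of an endoplasmic reticulum chaperone gene, had log2 changes of 0.81 in nuclear RNA and -0.97 in mRNA. PNPT1P1 had 0.98 and -1.69, and KRT18P18 had 1.23 and -4.95, the latter from a mean of 0.189 CPM to 0 in mRNA. ERVFRD-1, the envelope gene of an endogenous retrovirus, moved the other way, with -0.78 in nuclear RNA and 1.09 in mRNA. Of the 19 genes with opposite calls, 5 were called for the difference itself (PRNCR1, HSPA8P1, MT-TM, RAB26 and MTHFD1P1).

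SNX22, a sorting nexin gene, rose in both fractions and by more in mRNA. It was at 6.62, 3.54 and 3.23 CPM in mRNA CTRL and at 55.2, 48.2 and 42.5 CPM in mRNA IM 18h, and at 15.1, 18.5 and 19.1 CPM in nuclear CTRL and 75.9, 65.0 and 79.4 CPM in nuclear IM 18h. All IM 18h libraries lay above all CTRL libraries. Its log2 difference of -1.38 (SE 0.27) did not pass (edgeR adjusted p 0.072).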
